A study of Danio rerio with 34 samples.

Results

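The unexposed testis transcriptome of the adult zebrafish was described from 6 RNA libraries of fish given only the carrier DMSO, which are 6 of 18 RNA libraries and of 34 samples in the series. They were chosen by their titles, and no measured value was used. The series also holds 6 RNA libraries from fish exposed for 24 h to 3 nM and 6 from fish exposed to 10 nM PCB126, a chlorinated pollutant and ligand of the aryl hydrocarbon receptor, with testes taken after 7 days in clean water, and it asks what that exposure does to gene expression and DNA methylation in the testis. All fish were labelled as adult and all tissue as testis, and no source used here gives a strain or an age in days. RNA and DNA were isolated together from whole tissue, so each library mixes germ cells, their supporting cells and whatever adheres to the organ. The series describes its replicates as biological.

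The testis makes sperm in cysts, in which a clone of germ cells passes from spermatogonia, which divide by mitosis, through spermatocytes, which go through meiosis, to spermatids that grow a flagellum. Sertoli cells enclose the cysts and supply growth factors of the TGF-beta family such as Amh and Gsdf. Leydig cells lie between the tubules and turn cholesterol into androgens, in fish chiefly 11-ketotestosterone, and secrete the hormone Insl3. Germ cells also hold large amounts of Piwi and Tudor-domain proteins, which use small RNAs to silence transposons.

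Values are CPM, counts relative to the library total, scaled by the TMM method. The 6 libraries held 16243660 to 29849891 counts, with replicate 3 the shallowest. Of 35117 gene identifiers, 4695 had 0 counts in all 6 and 18323 had at least 1 CPM in all 6. A count of 3, taken as the floor, was 0.0918 CPM in the deepest library and 0.179 CPM in the shallowest, for counting error only. On the first principal component, with 38.1% of the variance, replicate 1 lay at -46.2 and replicate 4 at -16.9, while the other libraries lay between 8.17 and 21.0. On the second, with 22.4%, replicate 3 lay at 32.9 and the others between -23.4 and 5.03. Values set by replicate 1 or 4 are given beside those of the other libraries. Transcript lengths were not used here, so a rank by counts orders reads and not transcripts, and levels of different genes are not compared.

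The genes with the most reads encoded mitochondrial respiratory subunits, chaperones, translation factors and tubulin, together with a germline Piwi protein. MT-CO1 (ENSDARG00000063905), a subunit of cytochrome c oxidase, was first in each of the 6 libraries, with a lowest value of 5149, a median of 7203 and a highest of 9152 CPM. It was lowest in replicate 2 and highest in replicate 3, and took 0.738% ± 0.161 of counts (SD, n = 6). HSP90AB1 (ENSDARG00000029150), a chaperone, followed with 4675, 4875 and 5811 CPM as lowest, median and highest. Replicate 1 stood above the other 5, which lay within 4675 to 5039 CPM. Of the 20 genes with the most counts, 4 were mitochondrial and 3 encoded cytosolic ribosomal proteins, and of the first 50 these were 5 and 15.

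**Figure D1:**
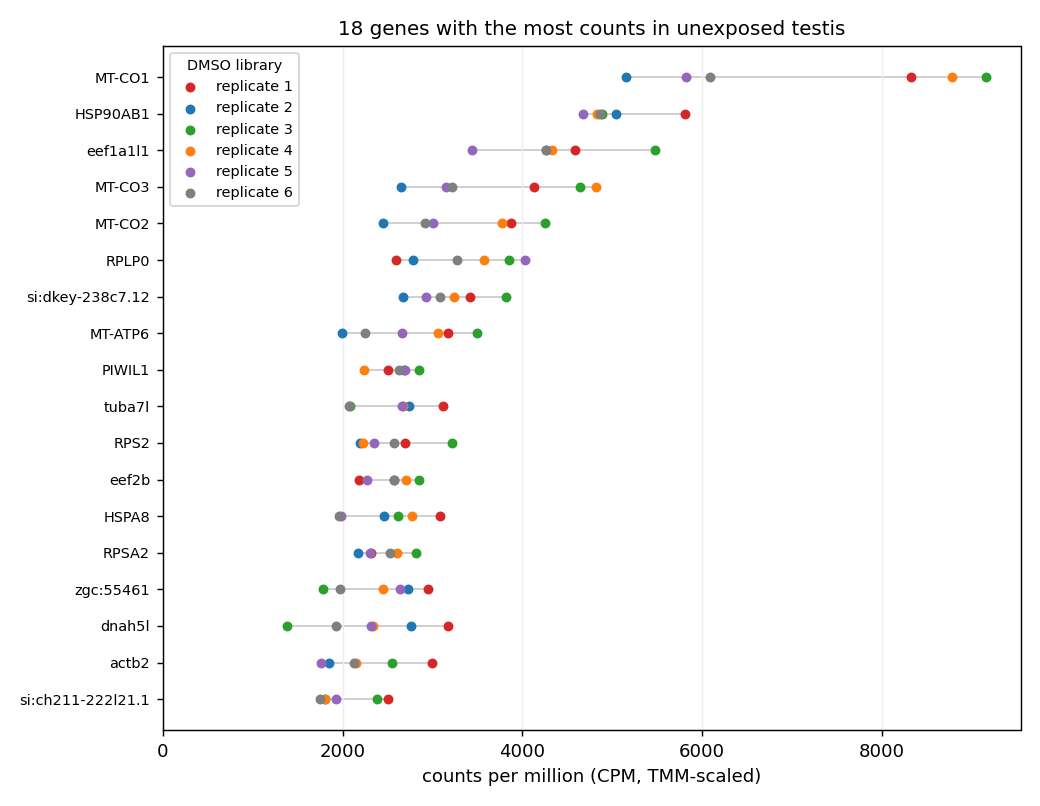
CPM of the 18 genes with the highest mean in the DMSO libraries, 1 coloured point per library and a grey line from lowest to highest, on a linear axis. MT-CO1 spread from 5149 to 9152 CPM, while PIWIL1 lay between 2238 and 2852 CPM, and dnah5l was lowest in replicate 3.

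PIWIL1 (ENSDARG00000041699), the Piwi protein known in zebrafish as Ziwi, was 9th by counts, with 2238, 2656 and 2852 CPM. No library stood apart, and its spread, an SD of 0.12 on the log2 scale, was below the median of 0.208 over all genes ranked for variability. A dynein heavy chain gene of the sperm tail, dnah5l (ENSDARG00000056888), was 16th, with 1386, 2325 and 3178 CPM. Its lowest value was in replicate 3 and its next lowest, 1929 CPM, in replicate 6. Among the other leading genes, CKB (ENSDARG00000069752), a creatine kinase, ran from 1142 CPM in replicate 3 to 2617 CPM in replicate 1, and gsdf (ENSDARG00000075301), the Sertoli growth factor, was 23rd.

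The unexposed transcriptome was spread over many genes. The 10 genes with the most counts took 4.0% ± 0.439 of counts, the first 100 took 16.3% ± 1.22 and the first 1000 took 44.9% ± 1.07 (SD, n = 6). It took 1229 to 1420 genes to reach 50% of counts. Mitochondrial genes held 1.68% to 2.94% and the 79 ribosomal protein genes 6.99% to 9.89%, with both shares highest in replicate 3 and lowest in replicate 2. The share of the first 100 genes was 18.9% ± 3.05 at 3 nM and 21.8% ± 5.34 at 10 nM (SD, n = 6). Neither difference from DMSO passed after adjustment over the 2 comparisons, by a two-sided exact permutation test (p = 0.0996, adjusted p = 0.0996 at 3 nM; p = 0.0411, adjusted p = 0.0823 at 10 nM; the smallest p this design allows is 0.00216). Without DMSO replicate 3, the most concentrated control, the adjusted exact p was 0.0476 at 3 nM and 0.0346 at 10 nM, and without 10 nM replicate 3 it was 0.0346 at 10 nM. In every other run that left out 1 library of the groups compared, the adjusted exact p stayed above 0.05. It ran from 0.0563 to 0.199 at 3 nM and from 0.0866 to 0.165 at 10 nM. In the exposed groups the mitochondrial and ribosomal shares also ranged higher, to 4.79% and 12.4% at 3 nM and to 7.22% and 13.8% at 10 nM, and without mitochondrial genes the differences were 1.98 percentage points at 3 nM and 3.90 at 10 nM, against 2.53 and 5.46 with them (exact permutation, adjusted p = 0.113 for both). The first 100 genes were chosen anew for that run, so the smaller differences do not give the mitochondrial part. The part of the mitochondrial or ribosomal genes was not tested.

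Genes that mark the germline summed to similar levels in the 6 libraries, although the median SD of those with at least 5 CPM, 0.244 on the log2 scale, was above the 0.208 over all genes. Of 23 genes for germline identity, 19 had a mean of at least 1 CPM, and the sum over the list ran from 7873 CPM in replicate 1 to 9439 CPM in replicate 2. DDX4 (ENSDARG00000014373), the vasa RNA helicase that marks germ cells, had 1110, 1362 and 1508 CPM as lowest, median and highest. The Tudor-domain genes of the germ granule followed, with 1005, 1190 and 1360 CPM for TDRD6, 523, 759 and 831 CPM for TDRD1, and 466, 610 and 692 CPM for TDRD9. Replicate 1 was the lowest library for each of these 4 genes. It was also lowest for 8 of the 13 list members with a mean of at least 5 CPM, against 21.4% of all genes at that level. With unscaled totals and with RLE scaling the count was also 8, while the share of all genes is with TMM scaling.

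PIWIL2, the other zebrafish Piwi gene, had 452, 484 and 544 CPM, and DAZL, an RNA-binding protein of germ cells, had 359, 379 and 456 CPM. The tudor gene tdrd7a (ENSDARG00000032808) varied more, with 772, 1209 and 1658 CPM. Replicate 3 was its lowest library and replicate 2 its highest. At the other end, gfra1a, the receptor for Gdnf in stem spermatogonia of mammals, had a mean of 0.629 CPM, ca15b had 0.343, LIN28A had 0.084, and NANOS3 had 0 counts in all 6 libraries, which allows at most 0.179 CPM in the shallowest.

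All 28 meiosis genes had a mean of at least 1 CPM, and their sum ran from 6564 CPM in replicate 6 to 9755 CPM in replicate 1. SYCP1 (ENSDARG00000003904), which forms the transverse filaments of the synaptonemal complex that holds paired chromosomes together, was the 30th gene by counts with 1066, 1620 and 2001 CPM. Replicates 3 and 6 were low for it, at 1066 and 1225 CPM, and the other 4 libraries lay above 1600 CPM. The meiotic cohesin gene smc1b had 808, 991 and 1166 CPM, syce2, of the central element, had 563, 718 and 908 CPM, and HORMAD1, which marks unpaired chromosome axes, had 536, 617 and 751 CPM. All 3 were highest in replicate 1 and lowest in replicate 6. Over the list, 18 of 27 members with at least 5 CPM were highest in replicate 1, against 26.4% of all 14536 genes at that level. With unscaled totals the count was 15, while the share of all genes is with TMM scaling.

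Genes of spermatids and sperm differed most between control libraries among the germ cell lists. All 58 had a mean of at least 1 CPM, and their sum was 14767, 13207, 7305, 12363, 12592 and 9231 CPM in replicates 1 to 6. Replicate 3 held the lowest value of 54 of the 57 members with at least 5 CPM, against 22.5% of all genes at that level, and replicates 3 and 6 were together the lowest pair for 51 of the 57, against 13.9%. With RLE scaling the first count was also 54, and with unscaled totals it was 56, while the shares of all genes are with TMM scaling. Replicate 3 was the shallowest library, and with every library thinned to its total the sum was 7259 CPM there and 9203 to 14603 CPM in the others. Thinning at random keeps each gene's expected share of counts, so it could not have moved these sums much. Whether depth bears on the low value was not tested.

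The tail motor genes show this order. DNAH1 (ENSDARG00000100115), an inner-arm dynein heavy chain needed for sperm tails in mammals, had 306, 630 and 804 CPM as lowest, median and highest, DNAH2 had 314, 532 and 836 CPM, and hydin, of the central pair of the axoneme, had 226, 450 and 656 CPM. Each was lowest in replicate 3, and next lowest in replicate 6. CFAP52, a protein inside the doublet microtubules, had 264, 469 and 492 CPM, and TEKT1, a tektin of the tail, had 239, 428 and 477 CPM. For both, 4 libraries lay close together and replicates 3 and 6 lay below them. DAW1, which helps load dynein arms, had 379, 528 and 612 CPM.

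Ribosomal and mitochondrial genes had the opposite order in replicate 3. Of 26 ribosomal protein genes in the list, 24 were highest there under each of the 3 scalings, and their sum was 37850 CPM against 26784 to 31527 CPM in the other libraries. Of 13 mitochondrial genes, 9 were highest there, or 11 with unscaled totals. Over all genes with at least 5 CPM the share highest there was 23.3% with TMM scaling. Whether the ribosomal and mitochondrial shifts bear on the low sperm values in that library was not tested. In bulk tissue, fewer cells of a type and less RNA per cell cannot be told apart.

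**Figure D2:**
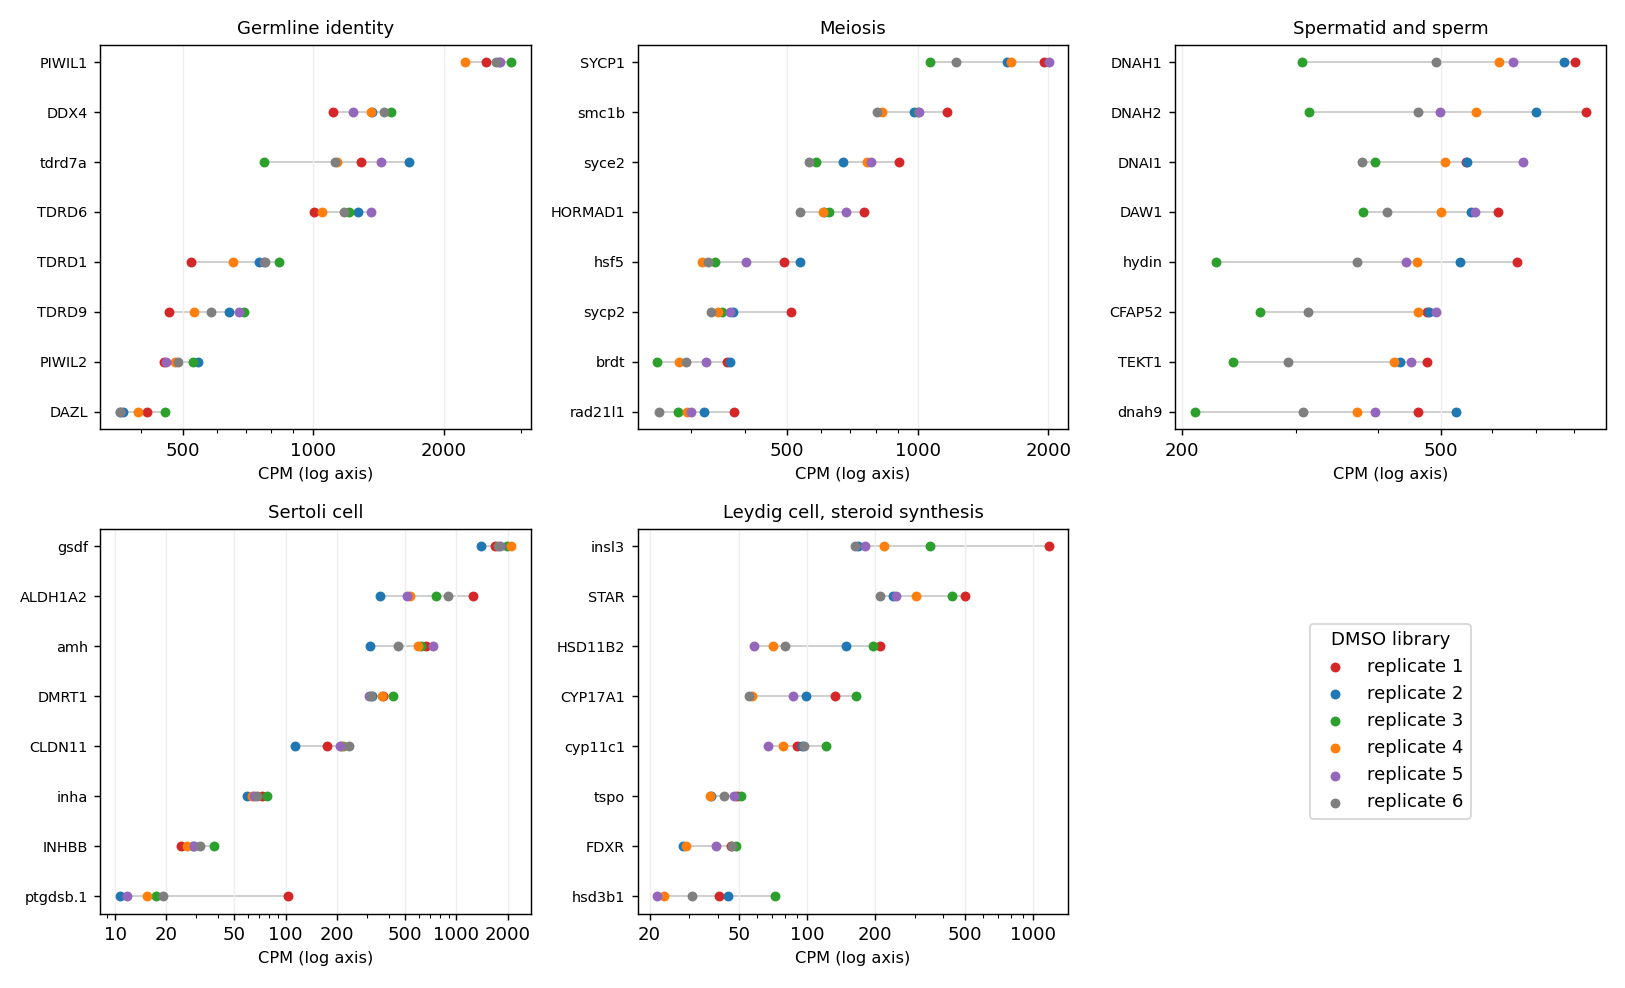
CPM of the 8 members with the highest mean in each of 5 lists (germline identity, meiosis, spermatid and sperm, Sertoli cell, Leydig cell), 1 coloured point per DMSO library on log axes. In the sperm panel replicate 3 was lowest for 7 of the 8 genes, and in the Leydig panel insl3 reached 1172 CPM in replicate 1 against 163 to 350 CPM in the others.

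Sertoli cell genes were detected in all 6 libraries, with 27 of 30 at a mean of at least 1 CPM. The growth factor gene gsdf had 1390, 1770 and 2089 CPM, and amh (ENSDARG00000014357), the anti-Müllerian hormone that holds back spermatogonial differentiation, had 313, 608 and 728 CPM. DMRT1, a transcription factor of the male pathway that germ cells also express, had 309, 344 and 427 CPM, and CLDN11 (ENSDARG00000020031), a claudin of the Sertoli barrier, had 113, 209 and 234 CPM. Replicate 2 was the lowest library for gsdf, amh and CLDN11, and 10 of the 22 members with at least 5 CPM were lowest there under each scaling. Of all genes at that level, 13.6% were lowest there with TMM scaling. The list's sum was 2754 CPM in replicate 2 and 3848 to 4558 CPM elsewhere.

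ALDH1A2 (ENSDARG00000053493), which makes retinoic acid and is also expressed outside Sertoli cells, varied more, with 355 CPM in replicate 2, a median of 648 CPM and 1255 CPM in replicate 1. The inhibin subunit gene inha had 59.3, 66.4 and 77.6 CPM. The prostaglandin synthase gene ptgdsb.1 (ENSDARG00000027088) had 102 CPM in replicate 1 and 10.7 to 19.1 CPM in the other 5. Of the growth factors for spermatogonia, kitlga had 3.62, 5.0 and 5.68 CPM and kitlgb a mean of 0.114 CPM. The 2 identifiers with the symbol GDNF had means of 0.216 CPM (ENSDARG00000039959) and 7.22 CPM (ENSDARG00000103764).

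All 27 genes of Leydig cells and steroid synthesis had a mean of at least 1 CPM, and their sum ran from 951 to 2477 CPM, or to 1682 CPM without replicate 1. The peptide hormone insl3 (ENSDARG00000035862) had 163 CPM at its lowest, a median of 199 CPM and 1172 CPM in replicate 1, while the next library, replicate 3, had 350 CPM. STAR, which moves cholesterol into mitochondria, had 210, 275 and 500 CPM. The library order was similar, with replicates 1 and 3 above the other 4.

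CYP17A1 (ENSDARG00000033566), the enzyme that makes androgen precursors, had 55.2, 92.9 and 165 CPM, and hsd3b1 had 21.7, 35.8 and 72.1 CPM. Both were highest in replicate 3 and not in replicate 1. The 11-beta-hydroxylase cyp11c1, which leads to 11-ketotestosterone, was steadier at 66.8, 92.1 and 121 CPM. HSD11B2, which acts after it, split into 3 libraries at 148 to 209 CPM (replicates 1, 2 and 3) and 3 at 58.2 to 79.5 CPM. Within the list, 8 of 18 members with at least 5 CPM were highest in replicate 3, against 23.3% of all genes at that level. In replicate 1, 6 were highest, against 26.4%.

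Genes of other cell types and pathways were also detected. The progestin receptor gene PGR had 22.0, 36.4 and 39.8 CPM. Aromatase CYP19A1 had 0.336, 0.738 and 1.1 CPM. Of 29 oocyte genes, 12 had a mean under 1 CPM, among them both FOXL2 genes, figla and vtg1, vtg2 and vtg5, while org had 79.0, 91.4 and 115 CPM, the egg coat gene zp3d.2 had 48.8, 63.1 and 72.8 CPM, and buc, which organises the Balbiani body, had 23.4, 28.4 and 37.8 CPM. None of the 13 oocyte genes with at least 5 CPM had an SD over 1.

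In the DMSO libraries, CYP1A1, the aryl hydrocarbon receptor's best known target, had 2.45, 3.25 and 4.91 CPM, and the receptor gene ahr2 had 21.9, 33.7 and 36.0 CPM. Both CYP1B1 and the repressor ahrra had means under 1 CPM. The related gene cyp1c1 had 9.92 CPM in replicate 3 and 1.64 to 5.03 CPM in the others. RAG2 (ENSDARG00000052121), a recombinase gene of lymphocytes, had 55.6, 115 and 125 CPM, while its partner RAG1 had 0.764 to 2.5 CPM. The lowest RAG2 values were those of replicates 3 and 6, as for the sperm genes.

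**Figure D3:**
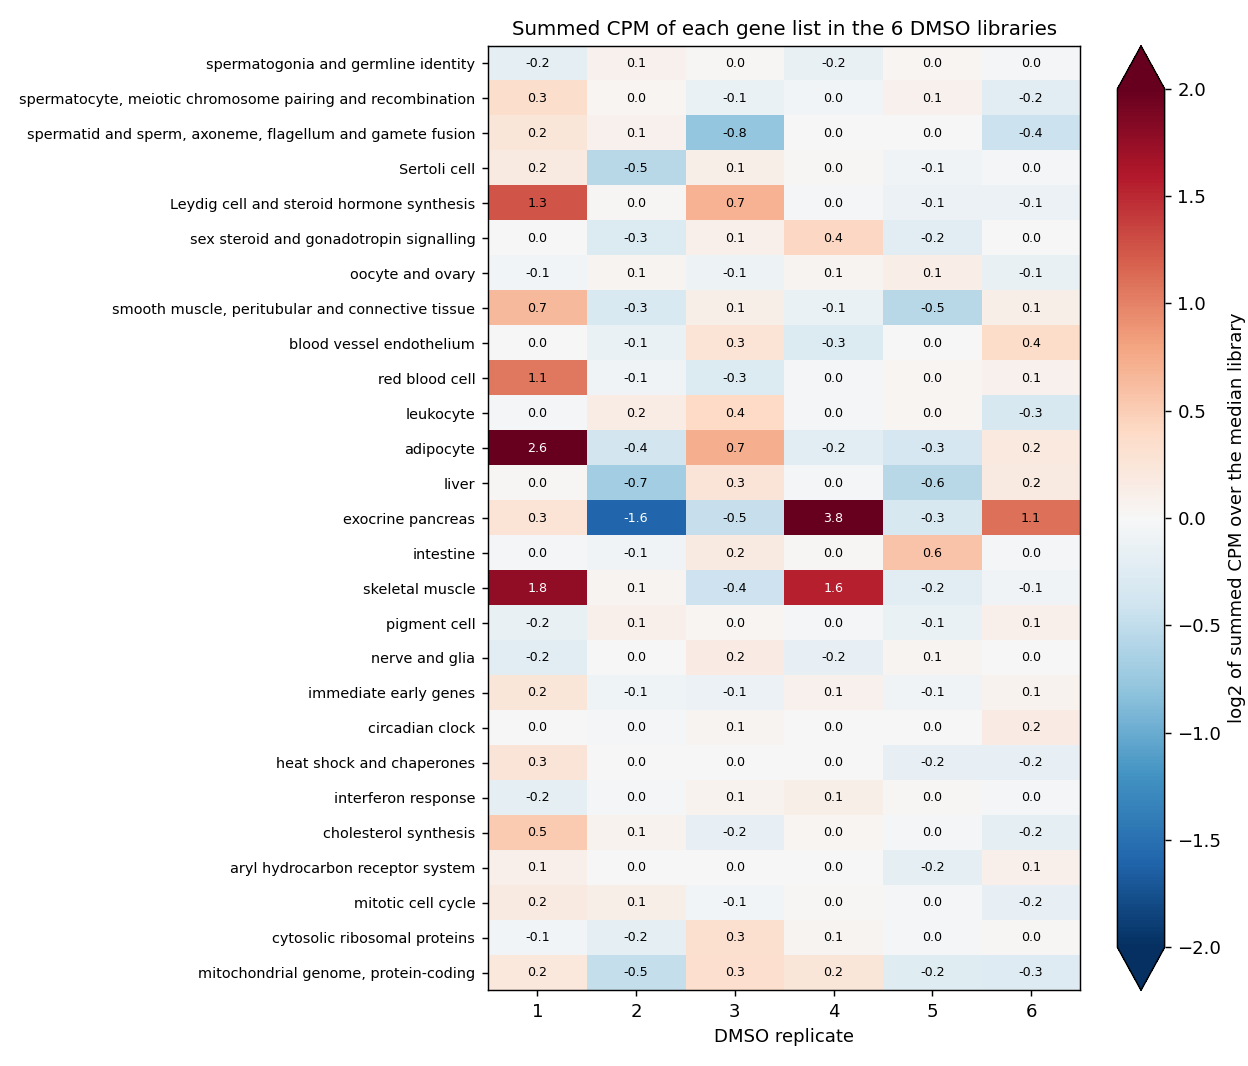
Summed CPM of each of 27 gene lists in the 6 DMSO libraries, as the log2 ratio to the list's median library, with the value printed in each cell. Exocrine pancreas reached 3.8 in replicate 4, skeletal muscle 1.8 in replicate 1 and 1.6 in replicate 4, and the sperm list fell to -0.8 in replicate 3; the adipocyte value of replicate 1 rests mainly on apoeb.

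Most genes differed little between the control libraries. Among the 14536 genes with a mean of at least 5 CPM, the SD of log2 CPM over the 6 libraries had a median of 0.208, and 13381 genes, 92.1%, were under 0.5. The steadiest gene with a mean of at least 100 CPM was SDHA (ENSDARG00000016721), a subunit of succinate dehydrogenase, at 119, 122 and 125 CPM, an SD of 0.029. Next came SUPT5H, an elongation factor of RNA polymerase, at 110, 114 and 117 CPM, and MCM7, of the replicative helicase, at 307, 312 and 331 CPM. Clock genes, which follow the time of day, had a median SD of 0.226. Of 30 with at least 5 CPM, 13 were highest in replicate 6, against 14.3% of all genes, and 13 were lowest in replicate 1, against 21.4%. With unscaled totals the counts were 16 and 17, while both shares of all genes are with TMM scaling. Immediate early genes, which respond to handling, had a median SD of 0.256, and 1 of them, CCN2, had an SD over 1 and reached 88.1 CPM in replicate 1. Over all 14536 ranked genes the median SD was 0.306 at 3 nM and 0.374 at 10 nM, beside 0.208 in DMSO.

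An SD over 1 was found for 200 genes, 1.38% of those ranked, and these are called variable below. They were chosen by this spread, so their values are descriptions. The last gene inside had an SD of 1.007 and the first outside one of 0.997. Replicate 1 was the highest library for 85 of them, replicate 4 for 54, and each other library for 12 to 18. Of all ranked genes, 26.4% were highest in replicate 1, 9.82% in replicate 4 and 12.8% to 23.3% in each other library. Without replicate 1 there were 134 variable genes, of which 118 were among the 200, without replicate 4 there were 186 (160 shared), and without both there were 114 (82 shared).

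**Figure D4:**
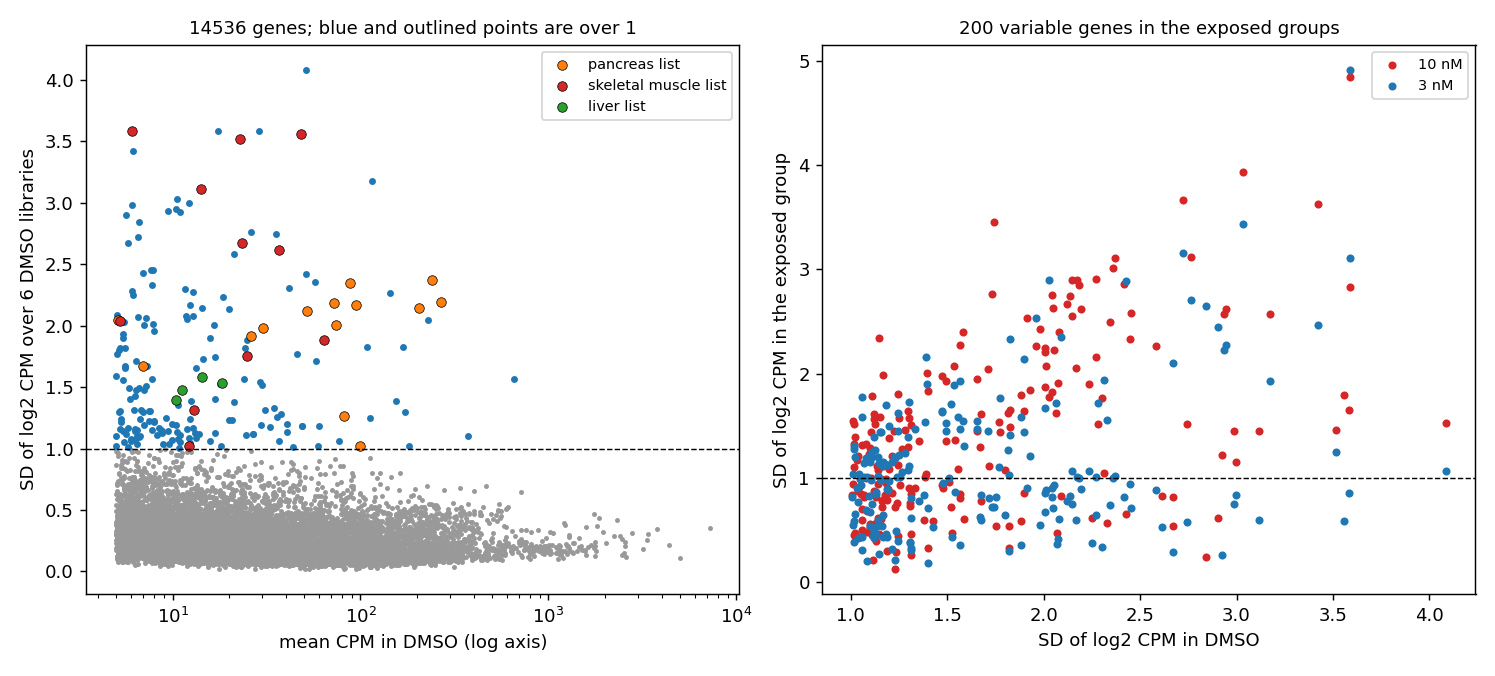
Left: mean CPM (log axis) against the SD of log2 CPM over the 6 DMSO libraries for 14536 genes, with the 200 over 1 (dashed line) in blue and members of 3 lists outlined. Right: the SD of these 200 genes in DMSO against their SD in each exposed group; 98 were also over 1 at 3 nM and 121 at 10 nM.

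Digestive enzymes of the exocrine pancreas varied together, and all 14 listed genes were variable. Trypsinogen prss1 (ENSDARG00000042993) had 78.8, 13.7, 48.5, 1259.5, 51.6 and 163 CPM in replicates 1 to 6. Carboxypeptidase CPA1 (ENSDARG00000021339) had 34.5, 3.9, 13.3, 399, 10.5 and 68.8 CPM, and amylase amy2a had 23.1, 4.57, 17.9, 428, 29.6 and 63.1 CPM. Each of the 14 was highest in replicate 4, against 9.82% of all genes with at least 5 CPM. In replicate 2, 12 were lowest, against 13.6%. The sum over the list was 5884 CPM in replicate 4 and 141 to 905 CPM in the others. Insulin, from endocrine islets, followed another library: ins (ENSDARG00000035350) had 25.1 CPM, 819 counts, in replicate 6 and 0.06 to 5.73 CPM in the others.

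Fast skeletal muscle genes were high in 2 libraries. MYL11 (ENSDARG00000053254), a myosin light chain, was the most variable gene, with 220, 0.176, 0.717, 87.1, 0.622 and 1.19 CPM in replicates 1 to 6. Parvalbumin pvalb4, a calcium buffer of fast fibres, had 159 and 127 CPM in replicates 1 and 4 and 0.598 to 2.72 CPM in the others, and muscle creatine kinase ckmb had 72.1 and 62.2 CPM against 0.359 to 1.1 CPM. The troponin genes TNNT3 (ENSDARG00000068457) and TNNI2 (ENSDARG00000029995) and the parvalbumin gene pvalb3 shared this pattern. In all, 11 of 19 listed muscle genes with at least 5 CPM were variable. Not all were: NEB had 113, 139 and 199 CPM and TTN (ENSDARG00000028213) had 55.6, 104 and 118 CPM.

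Replicate 1 was also high for several keratin, apolipoprotein and haemoglobin genes, named here for their spread. The keratin gene krt5 (ENSDARG00000058371) had 678 CPM there and 2.32 to 5.9 CPM in the other 5, krt17 had 63.4 CPM against 0.879 to 1.67 CPM, and krt91 had 610 CPM against 41.9 to 110 CPM. Apolipoprotein E gene apoeb (ENSDARG00000040295) had 2726 CPM against 158 to 399 CPM, and apoc1 had 267 CPM against 11.6 to 26.5 CPM. Haemoglobin gene hbaa1 had 69.1 CPM against 8.36 to 23.1 CPM, and alas2, which starts haem synthesis in red cells, had 30.6 CPM against 3.52 to 8.59 CPM. Of 8 listed red cell genes with at least 5 CPM, 5 were highest in replicate 1, against 26.4% of all genes at that level.

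Several lists with no or few variable genes leaned the same way in that library. Of 17 smooth muscle and connective tissue genes 14 were highest in replicate 1. So were 17 of 22 cholesterol synthesis genes (15 with unscaled totals) and 15 of 23 chaperone genes (10 with unscaled totals). Of 57 sperm genes 38 were highest there (24 with unscaled totals), and of 27 mitotic cell cycle genes 13 were (4 with unscaled totals). Of all genes, 26.4% were highest in replicate 1 with TMM scaling. The part that these shifts played in its high insl3 value was not tested.

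Several other apolipoprotein and liver genes were lowest in replicate 1, but the sum over the liver list was not. Transferrin tfa (ENSDARG00000016771) had 1.56, 13.4, 44.0, 5.93, 7.08 and 14.3 CPM in replicates 1 to 6, and apolipoprotein apoa1b had 1.79, 13.9, 45.9, 13.9, 11.8 and 22.2 CPM. The fatty acid binding protein fabp10a and apoa2 were likewise highest in replicate 3 and lowest in replicate 1. Of 9 listed liver genes with at least 5 CPM, 5 were lowest in replicate 1, against 21.4% of all genes at that level. In replicate 3, 5 were highest, against 23.3%, and in replicate 4, 2 were, against 9.82%. The liver sum was 410 CPM in replicate 3, 389 in replicate 6, 346 in replicate 1 and 212 to 338 in replicates 2, 4 and 5. With unscaled totals replicate 6 was highest. Lymphatic receptor FLT4 (ENSDARG00000104453) had 8.85 and 7.48 CPM in replicates 1 and 4 and 24.7 to 41.4 CPM in the other 4, the reverse of the muscle genes.

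**Figure D5:**
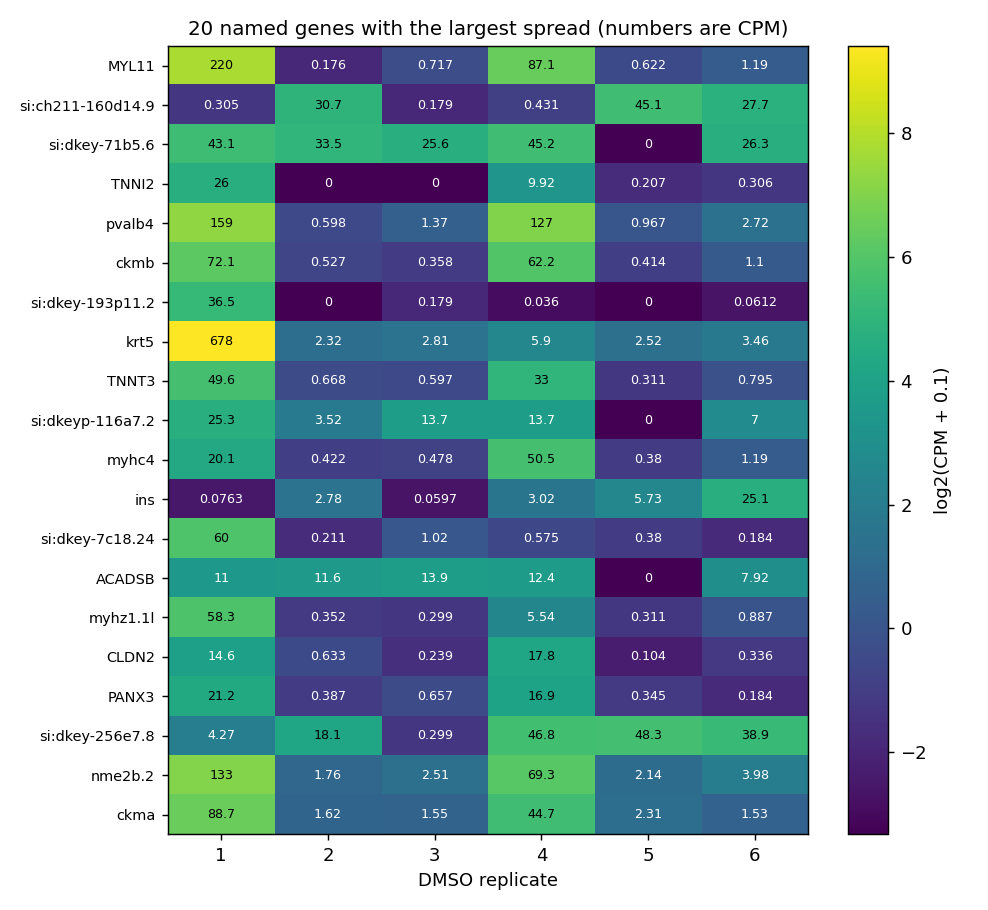
CPM in each DMSO library of the 20 genes with a symbol and the largest SD, printed in each cell and coloured by log2(CPM + 0.1). Muscle genes such as MYL11, pvalb4 and ckmb are high in replicates 1 and 4, krt5 in replicate 1 alone, and si:dkey-71b5.6, si:dkeyp-116a7.2 and ACADSB are at 0 in replicate 5.

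A few variable genes were near absent in some libraries and well expressed in others. Of the 200, 12 had at most 3 counts in at least 1 control library, among them the muscle gene TNNI2. ENSDARG00000098861 (si:dkey-71b5.6) had 0 counts in replicate 5 and 25.6 to 45.2 CPM, 428 to 1257 counts, in the other 5. In the exposed groups 2 of 6 libraries at 3 nM and 3 of 6 at 10 nM also had at most 3 counts of it, beside libraries with up to 3565 and 965. ACADSB (ENSDARG00000098174), named for a mitochondrial acyl-CoA dehydrogenase, had 0 counts in replicate 5 and 7.92 to 13.9 CPM in the others, and at most 3 counts in 1 library of each exposed group. ENSDARG00000088069, which has no symbol here, had 0 counts in DMSO replicate 4, with at most 3 counts in 3 libraries at 3 nM and 4 at 10 nM.

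The reverse pattern was that of si:dkey-193p11.2 (ENSDARG00000096712), with 956 counts in replicate 1 and 0 to 3 in the other 5. In the exposed groups only 2 libraries at 3 nM and 1 at 10 nM had at most 3 counts of it. Its highest counts there were 189 and 2312. A split between libraries was seen for si:ch211-160d14.9 (ENSDARG00000096599), with 873, 1306 and 904 counts in replicates 2, 5 and 6 and 3 to 12 counts in replicates 1, 3 and 4. The sodium channel gene scn4aa (ENSDARG00000098738) had 23.7 and 19.5 CPM in replicates 5 and 6 and 0.597 to 1.02 CPM in the others. A count of 0 allows up to 0.108 CPM in replicate 4 and 0.104 CPM in replicate 5. Counting between close paralogs can move reads between genes of this kind, and was not tested.

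The variable genes were often variable between exposed libraries as well. At 3 nM 98 of the 200, 49%, had an SD over 1, against 3.54% of all ranked genes, and at 10 nM 121, 60.5%, against 6.76%. The 200 are not independent of each other. Over the DMSO libraries, 30 had a Pearson r of at least 0.95 with the log2 pancreas sum and 21 with the log2 muscle sum. Of the 114 genes that were variable without DMSO replicates 1 and 4, 57.9% were over 1 at 3 nM, against 3.43%, and 61.4% at 10 nM, against 6.59%. Pancreas sums ran from 131 to 682 CPM at 3 nM and from 146 to 3724 CPM at 10 nM, where replicates 4 and 5 had 3724 and 3245 CPM and the other 4 at most 801 CPM. Muscle sums stayed within 266 to 379 CPM in the 12 exposed libraries, below the 997 and 1158 CPM of DMSO replicates 4 and 1. The other 4 DMSO libraries, at 255 to 354 CPM, were much like the exposed ones.

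Against exposed testes, tested with edgeR's quasi-likelihood test and Benjamini-Hochberg adjustment over all 24053 genes, 0.208% of genes were called at 3 nM and 10.8% at 10 nM. Of 199 variable genes tested, 0 were called at 3 nM, and 6 at 10 nM, of which 1 was higher. At 3 nM 60 had an unadjusted edgeR p under 0.05, and the share of all genes at that p is not given here. DESeq2 called 18 of 196 variable genes at 3 nM, beside 317 of 24608 genes over all. At 10 nM it called 17 of 196, beside 4585 of 25210. The comparisons use the same DMSO libraries that chose these genes, so the counts are read as descriptions. Muscle actin gene actc1b (ENSDARG00000099197), with 202 and 128 CPM in DMSO replicates 1 and 4 and 10.4 to 15.6 CPM in the other 4, was called lower at 10 nM, where it had 8.57, 12.2 and 28.4 CPM (log2 fold change -2.07 ± 0.64 SE, edgeR adjusted p = 0.0467). Without DMSO replicate 1 the change was -1.25 and the adjusted p 0.154, and its call was lost in 12 of 18 fits that each left out 1 library; it held without DMSO replicates 3, 5 and 6, 3 nM replicates 4 and 6 and 10 nM replicate 3. Of the 6 calls, 4 were lost without DMSO replicate 1.

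Of the germ cell and somatic genes described here, 0 of the 21 germline, 28 meiosis, 58 sperm and 27 Sertoli genes tested were called at 3 nM, and 1 of 27 Leydig genes, beside 0.129% higher and 0.0790% lower over all genes. At an unadjusted p under 0.05, edgeR found 5 germline, 2 meiosis, 2 sperm and 8 Sertoli genes at 3 nM. The share of all genes at that unadjusted p is not given here, so these counts are not read as more or fewer. Of these 4 lists DESeq2 called 1 Sertoli gene and no other at 3 nM, beside 317 of 24608 genes over all. At 10 nM 1 germline gene fell and 2 rose, 11 meiosis and 4 sperm genes fell, 4 Sertoli genes rose and 1 fell, and 3 Leydig genes fell and 1 rose. These shares are set beside 7.40% higher and 3.44% lower over all genes. The median log2 fold changes at 10 nM were 0.02, -0.43, -0.12, 0.32 and -0.22 in the order of the lists, against 0.06 over all genes.

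The androgen enzyme CYP17A1 had 22.3, 27.7 and 62.1 CPM at 10 nM, a range that met that of DMSO only between 55.2 and 62.1 CPM, and fell by 1.39 on the log2 scale (SE 0.31, edgeR adjusted p = 0.0147). Its paralog cyp17a2 (ENSDARG00000053966) had 9.77, 25.5 and 36.4 CPM in DMSO and fell at both concentrations (-1.53 ± 0.30 at 3 nM, edgeR adjusted p = 0.0394, and -1.20 ± 0.30 at 10 nM, adjusted p = 0.0217). The 3 nM call was lost in 11 of the 18 fits that left out 1 library, among them those without DMSO replicates 1, 3, 4, 5 and 6, without 3 nM replicates 1, 3, 4, 5 and 6, and without 10 nM replicate 3. The 10 nM call was lost without DMSO replicate 6 and without 10 nM replicate 5.

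The germ granule gene tdrd7a fell from 1233 ± 303 CPM to 697 ± 148 CPM (SD, n = 6) at 10 nM, a log2 fold change of -0.80 ± 0.17 (edgeR adjusted p = 0.0114). FNDC3A (ENSDARG00000105503), a Sertoli cell gene needed for spermatid adhesion in mice, rose from 21.4 ± 1.13 CPM to 42.1 ± 12.8 CPM, and its groups did not overlap (log2 fold change 1.01 ± 0.21, edgeR adjusted p = 0.00941). NR0B1, a nuclear receptor that represses steroid genes, rose from 8.38 ± 2.48 CPM to 15.4 ± 3.38 CPM (log2 fold change 0.90 ± 0.19, edgeR adjusted p = 0.0109). CYP17A1, tdrd7a, FNDC3A, NR0B1 and the prostaglandin synthase gene ptgdsb.2 stayed called in all 18 fits that left out 1 library. So did the 6 meiosis genes with the smallest p, rad21l1, MEIOB, rec8b, MSH4, MSH5 and spata22. Of the 11 meiosis genes called at 10 nM, only these 6, picked by their p, were followed through such fits. MSH4, which with MSH5 stabilises crossover intermediates, had 133, 145 and 202 CPM in DMSO and 51.5, 79.0 and 97.0 CPM at 10 nM, with no overlap (log2 fold change -0.93 ± 0.16, edgeR adjusted p = 0.00336). The other 11 calls at 10 nM in the germline, sperm, Sertoli and Leydig lists were each lost without 10 nM replicate 5 and in at least 1 other such fit. Without 3 nM replicates 4 and 6 and 10 nM replicates 1, 5 and 6, which earlier work on these data found apart on a principal component, FNDC3A and NR0B1 stayed called (edgeR adjusted p = 0.0106 and 0.0362), as did these meiosis genes except MSH5 (0.0937), and tdrd7a, CYP17A1 and ptgdsb.2 did not (0.0968, 0.192 and 0.0921).

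For the hormone insl3 the control libraries decide the size of the difference. Its mean was 375 ± 397 CPM in DMSO, 232 ± 78.0 CPM at 3 nM and 171 ± 64.0 CPM at 10 nM (SD, n = 6), with log2 fold changes of -0.68 ± 0.44 and -1.11 ± 0.44 (edgeR adjusted p = 0.459 and 0.0956). Without DMSO replicate 1 these were 0.12 and -0.32 (adjusted p = 0.865 and 0.453). At 10 nM DESeq2 called insl3 with all libraries (adjusted p = 0.0479). The Sertoli genes amh and gsdf did not pass edgeR's test at 10 nM (log2 fold changes -0.77 ± 0.26 and 0.40 ± 0.19, edgeR adjusted p = 0.0593 and 0.151), and amh passed when 10 nM replicate 3, 10 nM replicate 4 or 3 nM replicate 6 was left out, and by DESeq2 (adjusted p = 0.0242).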

How the data were processed

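RNA from whole adult testis was sequenced as single 50-base reads from a stranded total RNA kit, per the labels' protocols. Tools named in the submitters' processing notes are FastQC, STAR, HTSeq and edgeR, with no version, and the build named is GRCz10. The authors deposited whole-number counts per gene, not normalized. No source used here states the strand setting or annotation release, so overlapping genes and close paralogs are uncertain. Methylation tables were not used here.

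Symbols came from a name table covering 27000 of 35117 identifiers, and capitals mark the human counterpart's symbol. CPM was computed with edgeR 4.0.16 on TMM totals, and spread as the SD of log2 CPM with a prior count of 2. No libraries were duplicates (chi-square per degree of freedom 19.7 to 50.5). Genes kept by filterByExpr were tested in 1 quasi-likelihood fit of all 18 libraries with the robust option (15 residual degrees of freedom, two-sided, called at an adjusted p under 0.05), and the steps were tested on simulated data. SE is the log2 fold change over the square root of its F. Alternatives were RLE scaling, unscaled totals, DESeq2 1.42.0, no filter, thinning, other cutoffs, a replicate block and leaving out libraries.

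The members and the 27 lists (603 of 658 names matched) were chosen with earlier results of these data known. Named genes were the 20 with the most counts, up to 8 of each germ cell, Sertoli and Leydig list by mean CPM with those under 1 CPM, up to 3 of other lists, the 20 largest SDs, variable list members and called list members; a few of these are not reported here. Outside the rule, RAG1, apoc1, the keratins other than krt5, scn4aa, ENSDARG00000088069 and the ranks of gsdf and SYCP1 were named after their values were seen. The near-absent pattern of other genes was also picked out after their values were seen.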

Additional observations from a re-analysis of the deposited data

Results flagged for a closer look

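Across 106 sets of 6 DMSO values (list sums and named genes, on the log2 scale), 13 had 1 library far from the other 5. Of these sets, 20 are genes named for their large spread, so no chance count applies to them. Among the other 86, 7 were far apart, where chance gives about 1 in 20, or 4.3, for independent sets of normal values. The 86 share the same libraries, and some list sums include genes also examined singly, so 4.3 is only a rough guide. Replicate 1 was the high library in 9 of the 13. Among list sums these were adipocyte genes, 3279 CPM, mainly from apoeb, against 421 to 902. They were also red blood cell genes, 358 CPM against 142 to 183, and cholesterol synthesis genes, 1209 CPM against 734 to 883. Among single genes they were HSP90AB1, 5811 CPM against 4675 to 5039, the synaptonemal complex gene sycp2, 511 CPM against 334 to 375, and ptgdsb.1, 102 CPM against 10.7 to 19.1. They also included krt5, 678 CPM against 2.32 to 5.9, si:dkey-7c18.24, 60.0 CPM against 0.184 to 1.02, and si:dkey-193p11.2, 36.5 CPM against 0 to 0.179.

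The low library was replicate 2 for the Sertoli list, 2754 CPM against 3848 to 4558. It was replicate 5, at 0 CPM, for si:dkey-71b5.6 (25.6 to 45.2 CPM in the others), si:dkeyp-116a7.2 (3.52 to 25.3 CPM) and ACADSB (7.92 to 13.9 CPM).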

How the results depend on the processing

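Among control descriptions, the mean concentration and the mean sums of the germline, meiosis, sperm, Sertoli and Leydig lists moved by less than 1 SD under every alternative run. Leaving out 1 library cannot move such a mean by 1 SD, and thinning keeps expected shares, so those runs could not have shown otherwise. The mean Leydig sum was 1356 CPM with all DMSO libraries and 1132 CPM without replicate 1. The count of 200 variable genes was 530 with a mean of at least 1 CPM, 109 with the median absolute deviation, 114 without DMSO replicates 1 and 4 (added after the data were seen), and 134 to 215 when 1 DMSO library was left out.

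Against DMSO, 50 genes were called at 3 nM and 2609 at 10 nM. DESeq2 called 317 and 4585. Leaving out 1 library gave 25 to 55 and 826 to 3855, and leaving out the 5 exposed libraries apart gave 65 and 468. RLE scaling called 1647 genes higher and 995 lower at 10 nM, against 1781 and 828. The cause of these differences was not tested. For the share of the first 100 genes, the difference ran from 1.77 to 3.11 percentage points at 3 nM and from 4.25 to 6.59 at 10 nM when 1 library was left out.

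Groups share replicate numbers, but same-numbered samples did not deviate together: 6 of 18 correlations were over 0.1 (-0.486 to 0.338), and 3 of the 18 same-number pairs were best matches, all between DMSO and 3 nM (replicates 1, 4 and 5). With a replicate block, 26 and 684 genes were called.

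Depth limits genes near 0: a count of 3 was 0.0918 to 0.179 CPM in DMSO.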
